A study of Mus musculus with 13 samples.

Results

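A set of 42 genes of 3 linked stress responses was followed in newly made kidney RNA: the unfolded protein response of the endoplasmic reticulum (ER), the integrated stress response (ISR) and the heat shock response. The genes were chosen by name from a list. All 42 were among the 35013 gene symbols of the deposited table and among the 16468 genes abundant enough to be tested. The series holds 13 libraries, and every mouse was a tamoxifen-treated female that carried Megalin3'Cre-Ert and Uprt flox/+, so that uracil phosphoribosyltransferase was switched on by the megalin (Lrp2) locus and tagged nascent RNA with 4-thiouracil. In the 4 Spns1 KO libraries both Spns1 alleles were floxed. The 5 WT libraries came from littermates with 1 floxed Spns1 allele according to the methods, whereas the labels give their genotype as Spns1 WT. The 4 FeO libraries came from mice of the WT genotype injected with 12 mg daily for 3 days, in the peritoneum, and were euthanized 1 week after. The agent was iron sucrose, and the dose refers to iron sucrose in the labels but to elemental iron in the methods. Ages were not given in the sources used here. The tagged RNA was pulled out of whole kidney, and none of 10 proximal tubule marker genes was at 0 throughout, but markers of other kidney cells were present too.

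Total counts were 23068023 to 71296474 per library. Spns1, the floxed gene, stood at 57.2, 61.4, 57.6, 39.2 and 62.9 CPM across WT 1 to 5, 39.04, 44.5, 36.6 and 58.95 CPM across Spns1 KO 1 to 4 and 58.7, 56.7, 39.01 and 45.95 CPM across FeO 1 to 4, where CPM stands for counts per 1000000 after scaling of each library. These values overlapped (log2 fold change -0.31 ± 0.18, adjusted p = 0.226). The deletion takes out a single exon whereas a count covers the whole gene, so this is a weak check of the labels. Its part in the overlap was not tested, and the paper reports loss of Spns1 RNA in the knockout. Spns1 KO 2 and Spns1 KO 4 lay inside the WT range of Spns1, and WT 1, WT 3 and WT 4 inside the Spns1 KO range. The library labelled Spns1 KO 4 was the highest of Spns1 KO, and the library labelled WT 4 the lowest of WT. Proximal tubule markers summed to 7658 to 8996 CPM in Spns1 KO and 3533 to 4903 CPM in WT with no overlap, so on that measure both libraries sat with their labelled group. Sums of endothelial, fibroblast and macrophage markers did not overlap either. Loop of Henle markers put WT 4, at 2484 CPM, inside Spns1 KO (2044 to 2778) and above the other WT libraries (1157 to 1709). Distal and collecting duct markers did so too, with WT 4 at 2069 CPM, Spns1 KO at 1334 to 2352 and the other WT libraries at 638 to 1233. Because Spns1 KO 4 and WT 4 also stood apart for several of the 42 genes, results that rest on them are given with and without them.

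The 3 responses share parts. In the ER, the sensors IRE1 (Ern1), PERK (Eif2ak3) and ATF6 respond to unfolded protein, and the transcription factors downstream of them, among them spliced XBP1, raise chaperones, disulfide isomerases and the machinery that sends misfolded protein for degradation. In the ISR, PERK and 3 other kinases phosphorylate eIF2α, which lowers general translation while ATF4 is translated more, and ATF4 with CHOP (Ddit3) raises genes of amino acid supply and feedback. In the cytosol, HSF1 raises the Hsp70, Hsp90 and small heat shock chaperones, and a chaperonin of Hsp60 and Hsp10 folds protein in mitochondria. Proximal tubule cells take up and break down filtered protein and iron, and carry a large ER and many mitochondria. RNA abundance does not show the phosphorylation, splicing or translation by which ATF4, XBP1, ATF6 and HSF1 are switched on.

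Relative to WT, 8 of the 42 genes were upregulated and 3 downregulated in Spns1 KO (adjusted p under 0.05 and a log2 fold change beyond 0.5), beside 14% and 7.55% of all genes tested. In FeO, 19 were upregulated and 5 downregulated, beside 22.4% and 19.7% of all genes tested. In Spns1 KO the median over the 42 genes was 0.13 on the log2 scale, against -0.045 over all genes tested. For FeO it was 0.39 against -0.011. Upregulated in both models were 7 of them, Hsp90b1, Calr, Pdia3, Pdia6, Sdf2l1, Hspd1 and Hspe1, as were 9.38% of all genes. Eif2ak3 was the one gene downregulated in both, as were 4.6% of all genes. Both comparisons use the same 5 WT libraries. Every library lay above WT for 9 of the 42 genes in Spns1 KO and below it for 7, beside 13.1% and 9.38% of all genes. For FeO these were 13 above and 5 below, beside 16.9% and 16.4% (22.4% and 33.4% of all genes were apart from WT in either direction in Spns1 KO and FeO). Each fold change is given on the log2 scale ± its standard error, with the adjusted p of edgeR's quasi-likelihood test. Without Spns1 KO 4 the Spns1 KO calls came to 22, of which 13 were up and 9 down, beside 34.1% of all genes called. Without both Spns1 KO 4 and WT 4, an alternative chosen after seeing the data, they came to 23, of which 14 were up and 9 down, beside 33.5%. Another scaling changed the Spns1 KO split: library totals alone gave 6 up and 6 down with the median of all genes at -0.18, and removal of a trend on transcript length and GC content gave 11 up and 2 down with that median at 0.11. In FeO removal of the trend left 19 up and 1 down, while over all genes 3921 were then up and 1826 down (3691 and 3252 before) and their median was 0.14. Library totals gave 16 up and 6 down in FeO. In the tissue as sampled, a change in RNA per cell and a change in the number of tagged cells of a type cannot be told apart.

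**Figure D1:**
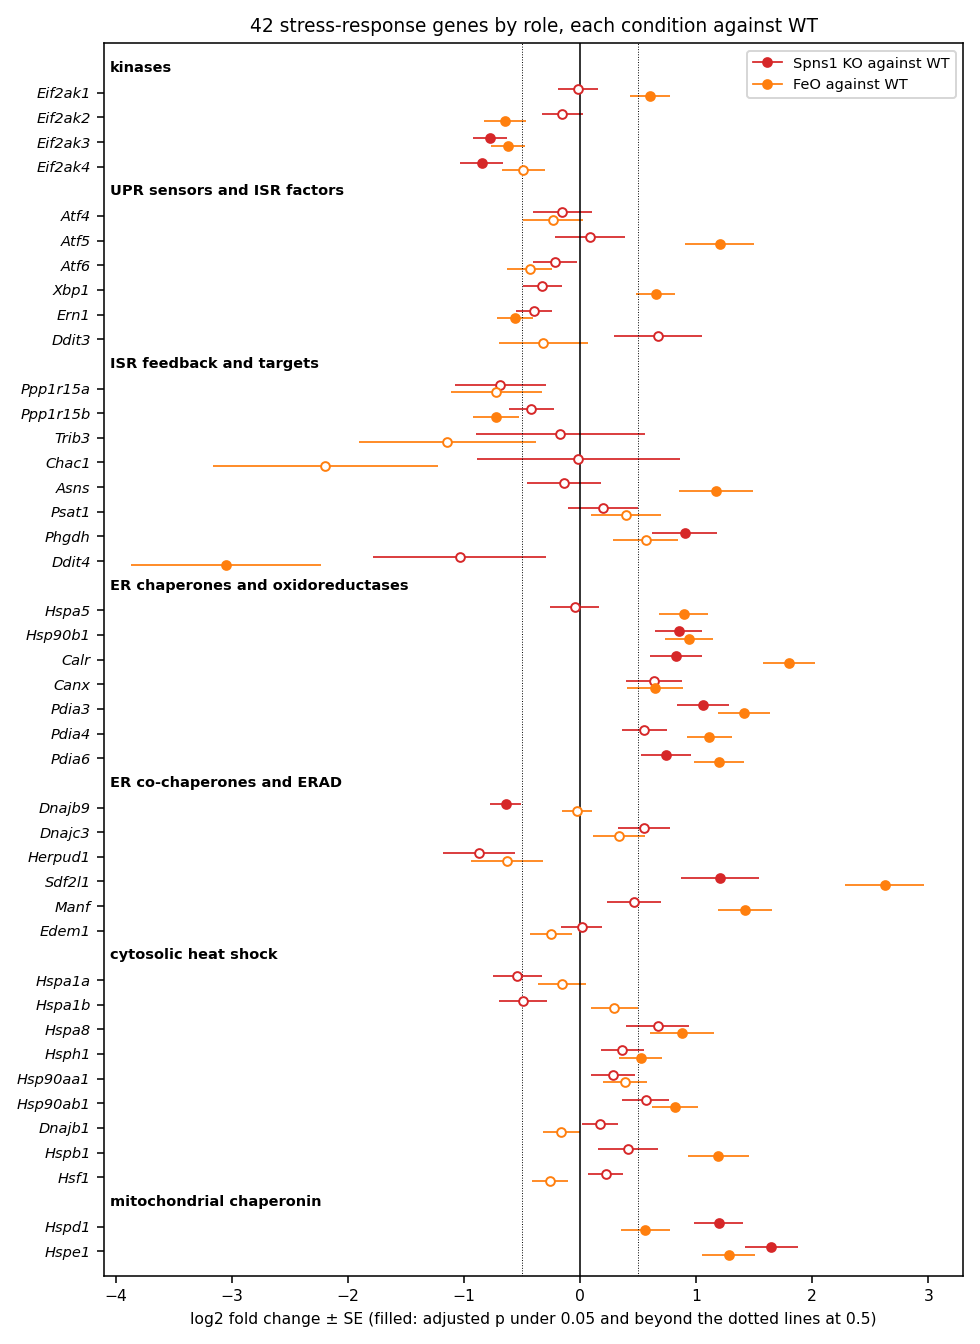
Log2 fold change with its standard error (horizontal axis) of each of the 42 genes, grouped by role, in Spns1 KO against WT (red, 4 and 5 libraries) and in FeO against WT (orange, 4 and 5 libraries). Filled points passed both limits: the ER chaperones lie to the right in FeO, from 0.64 for Canx to 1.80 for Calr, whereas Ddit4 lies furthest to the left at -3.05.

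Of the 7 roles into which the 42 genes were sorted, the ER chaperones and oxidoreductases had the highest median change in FeO. All 7 of them were upregulated in FeO (median log2 fold change 1.11) and 4 of 7 in Spns1 KO (median 0.74), beside 22.4% and 14% of all genes tested. Hspa5 encodes BiP, the main Hsp70 of the ER lumen and the partner that holds the stress sensors inactive. It stood at 395, 368, 333, 300.1 and 414 CPM across WT 1 to 5 and 332, 304, 484 and 282 CPM across Spns1 KO 1 to 4. Hspa5 was at 739.8, 494, 895 and 559 CPM across FeO 1 to 4. Every FeO library exceeded every WT library (log2 fold change 0.89 ± 0.21, adjusted p = 0.00371), while Spns1 KO lay across the WT range with Spns1 KO 3 above it and Spns1 KO 4 below it (log2 fold change -0.046 ± 0.21, adjusted p = 0.891). Hsp90b1, the ER Hsp90 also called GRP94, was at 225, 221, 183, 185 and 188 CPM across WT 1 to 5 and 379, 341, 445 and 277 CPM across Spns1 KO 1 to 4. Hsp90b1 was at 427, 237, 501 and 369 CPM across FeO 1 to 4. It was above WT in every library of both models (log2 fold change 0.85 ± 0.20, adjusted p = 0.00879 in Spns1 KO and 0.94 ± 0.20, adjusted p = 0.00235 in FeO).

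Calreticulin and calnexin hold glycoproteins while they fold. Calr, which encodes calreticulin, was at 163, 153, 134, 132 and 153 CPM across WT 1 to 5 and 299, 241, 336 and 166 CPM across Spns1 KO 1 to 4. Calr was at 586, 369, 695 and 394 CPM across FeO 1 to 4. Both models lay above WT without overlap, with a log2 fold change 0.82 ± 0.22, adjusted p = 0.0164 in Spns1 KO and 1.80 ± 0.23, adjusted p = 0.000337 in FeO. The lowest Spns1 KO value, in Spns1 KO 4, was close to the highest WT value. Canx, which encodes the membrane-bound calnexin, was at 236, 229, 239.6, 302 and 182 CPM across WT 1 to 5 and 433, 339, 463 and 241 CPM across Spns1 KO 1 to 4. Canx was at 454, 225, 474 and 332 CPM across FeO 1 to 4. Its FeO range overlapped that of WT through FeO 2 (log2 fold change 0.64 ± 0.24, adjusted p = 0.0395), and in Spns1 KO it missed the limit (log2 fold change 0.63 ± 0.24, adjusted p = 0.0666), passing it without Spns1 KO 4 (log2 fold change 0.79, adjusted p = 0.0167).

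The protein disulfide isomerases form and reshuffle disulfide bonds. Pdia3, which works with calreticulin and calnexin, was at 120.1, 113, 98.8, 104 and 114 CPM across WT 1 to 5 and 242, 236, 281 and 157 CPM across Spns1 KO 1 to 4. Pdia3 was at 290.2, 164, 411 and 307 CPM across FeO 1 to 4. Of the 7 genes it had the largest rise in Spns1 KO (log2 fold change 1.06 ± 0.22, adjusted p = 0.00438) and rose in FeO as well (log2 fold change 1.41 ± 0.22, adjusted p = 0.000514), with no overlap with WT in either. Pdia6 was at 48.9, 46.4, 43.4, 36.4 and 46.3 CPM across WT 1 to 5, 76.4, 80.6, 85.8 and 52.3 CPM across Spns1 KO 1 to 4 and 145, 68.2, 119.8 and 72.8 CPM across FeO 1 to 4, again above WT throughout (log2 fold change 0.74 ± 0.22, adjusted p = 0.0239 in Spns1 KO and 1.20 ± 0.22, adjusted p = 0.000831 in FeO). Pdia4 was at 37.1, 36.97, 34.9, 40.6 and 40.8 CPM across WT 1 to 5 and 62.7, 57.8, 69.3 and 33.8 CPM across Spns1 KO 1 to 4. Pdia4 was at 87.3, 75.6, 105 and 61.1 CPM across FeO 1 to 4. It rose in FeO (log2 fold change 1.11 ± 0.19, adjusted p = 0.000715), whereas in Spns1 KO the library Spns1 KO 4 fell below every WT library while the other 3 lay above them all (log2 fold change 0.55 ± 0.19, adjusted p = 0.0506, or 0.73, adjusted p = 0.00295 without Spns1 KO 4).

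**Figure D2:**
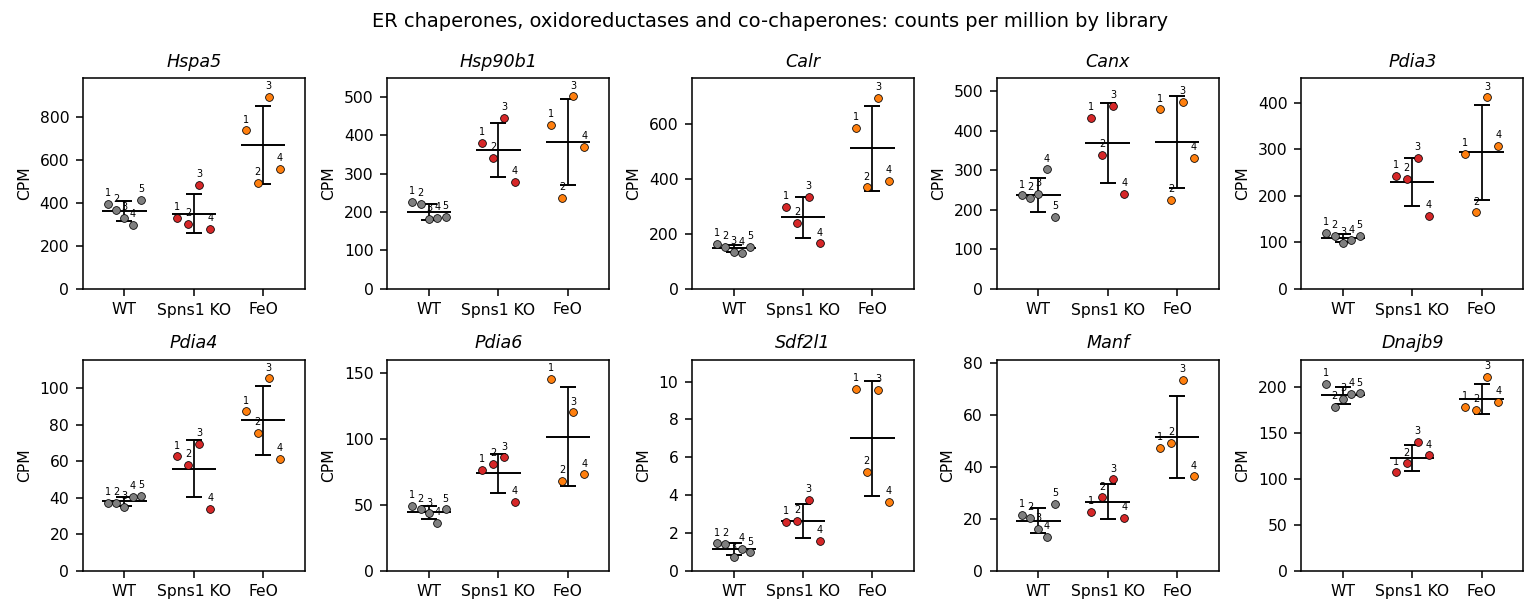
CPM (vertical axis, from 0) of 10 ER chaperone, oxidoreductase and co-chaperone genes in each library, numbered by replicate within WT (5), Spns1 KO (4) and FeO (4), with the group mean as a bar and the SD as an error bar. Spns1 KO 4 is the lowest Spns1 KO library for 9 of the 10 genes, and Dnajb9 is lower in Spns1 KO (107 to 141) than in both other groups.

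Among the co-chaperones and the degradation genes of the ER, 2 of 6 were upregulated in FeO, beside 22.4% of all genes tested. In Spns1 KO 1 was upregulated and 1 downregulated, beside 14% and 7.55%. Sdf2l1, an ER-lumen partner of the BiP co-chaperones, had the largest rise of the 42 genes in FeO but a low level, at 1.44, 1.42, 0.693, 1.13 and 0.965 CPM across WT 1 to 5 and 2.56, 2.62, 3.74 and 1.58 CPM across Spns1 KO 1 to 4. Sdf2l1 was at 9.61, 5.22, 9.55 and 3.64 CPM across FeO 1 to 4. It was above WT in every library of both models (log2 fold change 1.21 ± 0.34, adjusted p = 0.0183 in Spns1 KO and 2.62 ± 0.34, adjusted p = 0.000363 in FeO). Manf, a secreted ER-resident factor, was at 21.6, 20.2, 15.97, 13.1 and 25.8 CPM across WT 1 to 5, 22.7, 28.3, 35.3 and 20.5 CPM across Spns1 KO 1 to 4 and 47.5, 49.2, 73.7 and 36.4 CPM across FeO 1 to 4 and rose in FeO (log2 fold change 1.42 ± 0.23, adjusted p = 0.000572) but not past the limit in Spns1 KO (log2 fold change 0.46 ± 0.23, adjusted p = 0.159). Dnajb9, the BiP co-chaperone ERdj4 and a classical target of XBP1, went the other way in Spns1 KO. It was at 203, 178, 187, 193 and 193 CPM across WT 1 to 5 and 107, 117, 141 and 126 CPM across Spns1 KO 1 to 4. Dnajb9 was at 178, 175, 211 and 184 CPM across FeO 1 to 4. Spns1 KO lay below every WT and every FeO library (log2 fold change -0.64 ± 0.13, adjusted p = 0.00393 against WT), while FeO lay across the WT range (log2 fold change -0.029 ± 0.13, adjusted p = 0.868). Dnajc3 (P58IPK, another BiP co-chaperone), Herpud1 (a membrane organizer of ER-associated degradation) and Edem1 (which hands misfolded glycoproteins to degradation) passed in neither comparison. Their CPM ranges in Spns1 KO, WT and FeO were 123 to 204, 88.9 to 155 and 90.2 to 189 for Dnajc3. They were 505 to 970.5, 851 to 1577 and 462 to 1333 for Herpud1, and 71.7 to 105, 72.9 to 111 and 62.9 to 99.3 for Edem1. Without Spns1 KO 4, Dnajc3 was upregulated (log2 fold change 0.68, adjusted p = 0.0278) and Herpud1 downregulated (log2 fold change -1.09, adjusted p = 0.0206).

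Of the sensors and transcription factors above these chaperones, Xbp1 was upregulated in FeO and none in Spns1 KO. Ern1, which encodes IRE1, was at 82.6, 84.1, 99.7, 115 and 80.5 CPM across WT 1 to 5 and 73.02, 61.4, 65.3 and 80.2 CPM across Spns1 KO 1 to 4. Ern1 was at 76.95, 57.98, 61.8 and 53.4 CPM across FeO 1 to 4. It was below every WT library in both models and passed the limits in FeO (log2 fold change -0.56 ± 0.16, adjusted p = 0.0095) but not in Spns1 KO (log2 fold change -0.40 ± 0.16, adjusted p = 0.0718). Atf6 was at 139.7, 151, 178, 219.8 and 120.0 CPM across WT 1 to 5, 157, 126, 164 and 109 CPM across Spns1 KO 1 to 4 and 142, 113, 125 and 98.8 CPM across FeO 1 to 4 with overlap throughout (log2 fold change -0.22 ± 0.19, adjusted p = 0.428 in Spns1 KO and -0.44 ± 0.19, adjusted p = 0.0752 in FeO). Xbp1, whose messenger is spliced by IRE1, was at 103, 96.04, 95.9, 80.7 and 117 CPM across WT 1 to 5 and 64.9, 80.3, 96.6 and 72.7 CPM across Spns1 KO 1 to 4. Xbp1 was at 175, 186, 130.4 and 127 CPM across FeO 1 to 4. It was above every WT library in FeO (log2 fold change 0.65 ± 0.17, adjusted p = 0.00631) and across the lower end of WT in Spns1 KO (log2 fold change -0.32 ± 0.17, adjusted p = 0.174). The count sums spliced and unspliced Xbp1.

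The ER calls differed in how far they rested on single libraries. The call for Calr in Spns1 KO was lost without Spns1 KO 1 or Spns1 KO 3 (log2 fold changes of 0.68 to 0.75, adjusted p of 0.0579 to 0.0709), that for Pdia6 without Spns1 KO 1, Spns1 KO 2, Spns1 KO 3 or WT 3 (log2 fold changes of 0.66 to 0.75, adjusted p of 0.0517 to 0.0802), and that for Sdf2l1 without Spns1 KO 3 (log2 fold change 0.99, adjusted p = 0.0749). The FeO call for Canx was lost without WT 1, WT 2, WT 3, WT 5, FeO 1 or FeO 3 (log2 fold changes of 0.50 to 0.66, adjusted p of 0.0602 to 0.127), and that for Ern1 without WT 4 or FeO 4 (log2 fold changes of -0.47 to -0.46, adjusted p of 0.0255 to 0.0355). Library totals ended the Spns1 KO call for Pdia6 (log2 fold change 0.61, adjusted p = 0.0524) and the FeO call for Canx (log2 fold change 0.57, adjusted p = 0.0532), and a test of every gene with a count ended that for Ern1 (log2 fold change -0.49, adjusted p = 0.0302), as did leaving out Spns1 KO 4 and WT 4 (log2 fold change -0.47, adjusted p = 0.0141). Hsp90b1, Pdia3 and Dnajb9 in Spns1 KO, and Hspa5, Hsp90b1, Calr, Pdia3, Pdia4, Pdia6, Sdf2l1, Manf and Xbp1 in FeO, passed with each of the 13 libraries left out in turn. After removal of that trend on length and GC content, Dnajb9 (log2 fold change -0.45, adjusted p = 0.0401) and Sdf2l1 (log2 fold change 0.84, adjusted p = 0.115) no longer passed in Spns1 KO, nor Xbp1 in FeO (log2 fold change 0.50, adjusted p = 0.0165), and the sign of Ern1 in FeO turned (log2 fold change 0.019, adjusted p = 0.932).

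Of 34 other genes of ER folding and ER-associated degradation, 6 rose in Spns1 KO and none fell, beside 14% and 7.55% of all genes tested. In FeO 18 rose and 1 fell, beside 22.4% and 19.7%. The median log2 fold changes of the 34 genes were 0.088 and 0.51. The largest changes in Spns1 KO were in Pdia5, a disulfide isomerase (1.19), Sec61b, a subunit of the translocon (1.18), and Os9, a lectin of ER-associated degradation (0.95). In FeO they were in Sec61b (1.54), in Sil1, the nucleotide exchange factor of BiP (1.50), and in Selenok, a selenoprotein of the ER membrane (1.35). ER chaperones are abundant in plasma cells. Of 10 plasma and B cell markers 6 had a log2 fold change above 0 and 4 below it in Spns1 KO. For FeO these were 8 and 2. In Spns1 KO 4 of the 10 were upregulated, beside 14% of all genes tested. In FeO 5 were upregulated and 1 downregulated, beside 22.4% and 19.7%. Derl3, a gene of ER-associated degradation, is in both lists and is 1 of those 5 (log2 fold change 1.49, adjusted p = 0.0102 in FeO). The 10 markers summed to 44.4 to 157 CPM in Spns1 KO, 28.9 to 52.3 CPM in WT and 57.2 to 129.7 CPM in FeO, and none was at 0 in every library. The 7 macrophage markers summed to 79.7 to 121, 57.3 to 71.2 and 95.3 to 178 CPM, with 5 upregulated in FeO and none in Spns1 KO, beside the same shares. Of 10 proximal tubule markers 7 were upregulated in Spns1 KO, against 1 up and 1 down in FeO, beside the same shares of all genes. Proximal tubule markers summed to 2066 to 5721 CPM in FeO. The part of these cell types in the ER chaperone values was not tested.

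Promoter sequences are shown for the genes in which the letters of a known stress element were found. RefSeq gives a window of 250 bases before to 50 after the start site (build GRCm38.p6) for 35 of the 42 genes, in 41 windows, and none for Atf6, Ppp1r15b, Manf, Hspa8, Hsp90aa1, Hsp90ab1 and Hsf1. Both strands were searched. The ER stress element, searched as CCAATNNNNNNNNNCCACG, was in 6 of the 35 genes (17.1%), or 6 of their 41 windows, and in 39 of 32851 promoter windows of the same length (0.119%). Of those 6 genes 5, namely Hspa5, Hsp90b1, Calr, Canx and Pdia6, were upregulated in FeO, and the other was Dnajc3. The second form, ATTGGNCCACG, was in Herpud1 alone among them and in 0.0365% of all windows. The element TGACGTGG was in none of them and in 0.676% of all windows. The genes were listed as stress-response genes and the elements were already known. How often an element occurs among them therefore tests nothing about the fold changes, here or for the elements searched below. The matches are listed with 8 bases on either side, read along the strand of the match, with the element in capitals. They are set out to show the conserved ends around a variable middle, and the 2 matches of Hsp90b1 lie on opposite strands.
Hspa5: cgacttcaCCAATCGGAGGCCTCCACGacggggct
Hsp90b1: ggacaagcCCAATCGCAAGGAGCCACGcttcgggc
Hsp90b1: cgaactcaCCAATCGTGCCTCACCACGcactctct
Calr: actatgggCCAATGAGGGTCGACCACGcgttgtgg
Canx: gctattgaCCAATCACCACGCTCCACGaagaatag
Pdia6: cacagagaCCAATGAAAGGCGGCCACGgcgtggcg
Dnajc3: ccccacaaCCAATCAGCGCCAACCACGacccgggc
Herpud1: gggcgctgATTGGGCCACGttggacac

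The whole windows of Hspa5 (chr2:34771840-34772139, plus strand) and Hsp90b1 (chr10:86705395-86705694, minus strand) are printed 5′ to 3′ along the gene, with the matches in capitals, since these genes have the same element and differed in Spns1 KO. In Hspa5 the match starts 65 bases before the start site, and in Hsp90b1 the matches start 212 and 107 bases before it.
Hspa5: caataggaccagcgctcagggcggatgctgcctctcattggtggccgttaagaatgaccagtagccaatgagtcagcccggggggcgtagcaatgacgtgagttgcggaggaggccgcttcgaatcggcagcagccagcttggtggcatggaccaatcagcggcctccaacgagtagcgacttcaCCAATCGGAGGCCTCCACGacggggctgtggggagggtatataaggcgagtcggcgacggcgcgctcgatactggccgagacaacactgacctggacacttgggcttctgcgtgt
Hsp90b1: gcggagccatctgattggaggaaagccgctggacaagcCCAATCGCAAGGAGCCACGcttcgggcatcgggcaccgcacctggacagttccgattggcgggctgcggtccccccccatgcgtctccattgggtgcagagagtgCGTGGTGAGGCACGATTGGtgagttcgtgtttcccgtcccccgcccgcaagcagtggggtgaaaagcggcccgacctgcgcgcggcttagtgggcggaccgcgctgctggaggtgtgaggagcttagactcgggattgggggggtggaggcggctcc

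The 4 eIF2α kinases, which start the ISR, moved in different directions in FeO, while none was above WT on the log2 scale in Spns1 KO. In Spns1 KO 2 of the 4 were downregulated, beside 7.55% of all genes tested. In FeO 1 was upregulated and 2 downregulated, beside 22.4% and 19.7%. Eif2ak3 encodes PERK, the kinase of the ER membrane, and stood at 103, 99.8, 126, 107 and 114 CPM across WT 1 to 5 and 61.4, 57.9, 53.9 and 83.3 CPM across Spns1 KO 1 to 4. Eif2ak3 was at 70.8, 80.2, 67.3 and 67.3 CPM across FeO 1 to 4. Both models lay below every WT library (log2 fold change -0.78 ± 0.15, adjusted p = 0.00234 in Spns1 KO and -0.62 ± 0.15, adjusted p = 0.00397 in FeO). Eif2ak4 encodes GCN2, which senses uncharged transfer RNA, and stood at 70.6, 73.5, 85.6, 77.4 and 79.03 CPM across WT 1 to 5 and 36.04, 38.5, 32.5 and 64.4 CPM across Spns1 KO 1 to 4. Eif2ak4 was at 61.3, 59.9, 44.2 and 54.5 CPM across FeO 1 to 4. It was downregulated in Spns1 KO (log2 fold change -0.85 ± 0.19, adjusted p = 0.00541) and below WT without overlap in FeO, where it fell short of the fold limit (log2 fold change -0.49 ± 0.19, adjusted p = 0.0416). Eif2ak2 encodes PKR, which senses double-stranded RNA, and stood at 34.6, 36.7, 40.04, 46.8 and 39.7 CPM across WT 1 to 5, 31.2, 35.2, 29.3 and 46.6 CPM across Spns1 KO 1 to 4 and 22.03, 25.2, 19.998 and 33.7 CPM across FeO 1 to 4, lower in FeO than in every WT library (log2 fold change -0.65 ± 0.18, adjusted p = 0.00947) and overlapping WT in Spns1 KO (log2 fold change -0.15 ± 0.18, adjusted p = 0.553).

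Eif2ak1 encodes HRI, the kinase that haem holds inactive, and was the one kinase gene to rise. Its levels were 81.9, 80.4, 87.3, 109 and 86.01 CPM across WT 1 to 5 and 101, 82.2, 99.1 and 68.8 CPM across Spns1 KO 1 to 4. Eif2ak1 was at 157, 111, 165 and 106 CPM across FeO 1 to 4. WT 4 stood above the other WT libraries and FeO 4 lay below WT 4, so that FeO and WT overlapped (log2 fold change 0.60 ± 0.17, adjusted p = 0.0119), and Spns1 KO overlapped WT as well (log2 fold change -0.017 ± 0.17, adjusted p = 0.952). The FeO call was lost without FeO 3 (log2 fold change 0.49, adjusted p = 0.0461), and 10.3% of the 31-base words of Eif2ak1 occur in other genes, mostly Aimp2, which overlaps it. The median transcript length of the 4 kinase genes was 4419 bases, against 2930 over all genes tested, and removal of the length and GC trend took away 3 of the 4 calls for lower kinase genes. The log2 fold change of Eif2ak3 was then -0.47, adjusted p = 0.0329 in Spns1 KO and -0.28, adjusted p = 0.123 in FeO, that of Eif2ak2 -0.29, adjusted p = 0.137 in FeO and that of Eif2ak4 -0.51, adjusted p = 0.0323 in Spns1 KO, the last of which still passed.

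Of the transcription factors of the ISR, Atf5 alone passed, in FeO. Atf4 was at 165, 152, 108, 71.5 and 204 CPM across WT 1 to 5, 99.9, 113, 118 and 173 CPM across Spns1 KO 1 to 4 and 94.3, 129, 119 and 133 CPM across FeO 1 to 4, with overlap in both comparisons (log2 fold change -0.15 ± 0.25, adjusted p = 0.684 in Spns1 KO and -0.23 ± 0.26, adjusted p = 0.465 in FeO). Atf5, a related factor linked to mitochondrial stress, was at 21.5, 19.9, 19.5, 13.7 and 20.96 CPM across WT 1 to 5 and 16.7, 13.9, 27.5 and 23.05 CPM across Spns1 KO 1 to 4. Atf5 was at 74.8, 20.5, 48.1 and 32.5 CPM across FeO 1 to 4. It rose in FeO, where FeO 2 alone lay inside the WT range (log2 fold change 1.20 ± 0.30, adjusted p = 0.00522), and did not pass in Spns1 KO (log2 fold change 0.084 ± 0.30, adjusted p = 0.859). Ddit3, which encodes CHOP, was at 24.04, 20.2, 11.8, 6.29 and 14.7 CPM across WT 1 to 5, 13.98, 20.1, 19.5 and 44.6 CPM across Spns1 KO 1 to 4 and 7.80, 13.2, 10.1 and 18.4 CPM across FeO 1 to 4 and passed in neither comparison (log2 fold change 0.67 ± 0.38, adjusted p = 0.21 in Spns1 KO and -0.32 ± 0.38, adjusted p = 0.513 in FeO). Spns1 KO 4 held its highest value and WT 4 its lowest.

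A set of ISR feedback genes fell into high and low libraries that crossed the group labels. Ddit4 (REDD1, an inhibitor of mTORC1) was at 127, 103, 54.4, 7.98 and 96.4 CPM across WT 1 to 5 and 10.5, 11.5, 12.7 and 116 CPM across Spns1 KO 1 to 4. Ddit4 was at 6.72, 7.56, 7.02 and 16.2 CPM across FeO 1 to 4. It was high in Spns1 KO 4 and in WT 1, 2, 3 and 5, and low in the other 3 Spns1 KO libraries, in WT 4 and in all of FeO. In FeO it was downregulated (log2 fold change -3.05 ± 0.82, adjusted p = 0.008), while in Spns1 KO it missed the limit (log2 fold change -1.04 ± 0.75, adjusted p = 0.324). Without Spns1 KO 4 it had in Spns1 KO a log2 fold change -2.75, adjusted p = 0.00416. Leaving out WT 4 too gave a log2 fold change -3.04, adjusted p = 0.000163 in Spns1 KO and -3.35, adjusted p = 8e-05 in FeO.

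Chac1 (a glutathione-degrading enzyme), Trib3 (a pseudokinase that feeds back on ATF4) and Ppp1r15a (GADD34, the inducible subunit that dephosphorylates eIF2α) had a similar split. Chac1 ranged over 0.581 to 23.5 CPM in Spns1 KO, 1.45 to 10.4 in WT and 0.671 to 3.02 in FeO, Trib3 over 0.745 to 12.2, 1.20 to 6.62 and 1.16 to 3.44, and Ppp1r15a over 12.99 to 49.6, 20.6 to 56.8 and 13.9 to 34.3. Spns1 KO 4 was the highest Spns1 KO library and WT 4 the lowest WT library for all 3, although FeO 2 exceeded WT 3 for Trib3 and Ppp1r15a. None passed with all libraries. The log2 fold changes in Spns1 KO were -0.015 ± 0.88, adjusted p = 0.991 for Chac1, -0.17 ± 0.73, adjusted p = 0.883 for Trib3 and -0.69 ± 0.39, adjusted p = 0.212 for Ppp1r15a. Without Spns1 KO 4 all 3 were downregulated, with log2 fold changes of -2.87, adjusted p = 0.00316 for Chac1, -2.17, adjusted p = 0.00641 for Trib3 and -1.32, adjusted p = 0.00646 for Ppp1r15a. In FeO the log2 fold changes were -2.19 ± 0.97, adjusted p = 0.0745 for Chac1, -1.14 ± 0.76, adjusted p = 0.229 for Trib3 and -0.72 ± 0.39, adjusted p = 0.142 for Ppp1r15a with all libraries. Without Spns1 KO 4 and WT 4 they were -2.45, adjusted p = 0.000791 for Chac1, -1.38, adjusted p = 0.00995 for Trib3 and -0.88, adjusted p = 0.0139 for Ppp1r15a, each past the limits.

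Immediate early genes, which rise within minutes of a stimulus, had the same split of libraries. The 12 listed ones, among them Fos, Jun, Egr1, Dusp1 and Zfp36, summed to 208, 239.9, 238 and 956 CPM in Spns1 KO 1 to 4. They summed to 721, 675, 534, 233 and 741 CPM in WT 1 to 5 and to 151, 307, 129.5 and 291 CPM in FeO 1 to 4. Chac1, Trib3, Ddit4 and Ppp1r15a together summed to 27.96, 30.4, 28.4 and 202 CPM in Spns1 KO, 185, 154, 95.3, 31.3 and 169.8 CPM in WT and 26.6, 48.3, 22.8 and 46.96 CPM in FeO. Of the 12 immediate early genes 1 was downregulated in Spns1 KO and 6 in FeO, beside 7.55% and 19.7% of all genes tested. The 6 in FeO were led by Zfp36 (-2.23), Dusp1 (-1.73) and Jun (-1.69). The part of the immediate early genes in the values of the feedback genes was not tested.

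**Figure D3:**
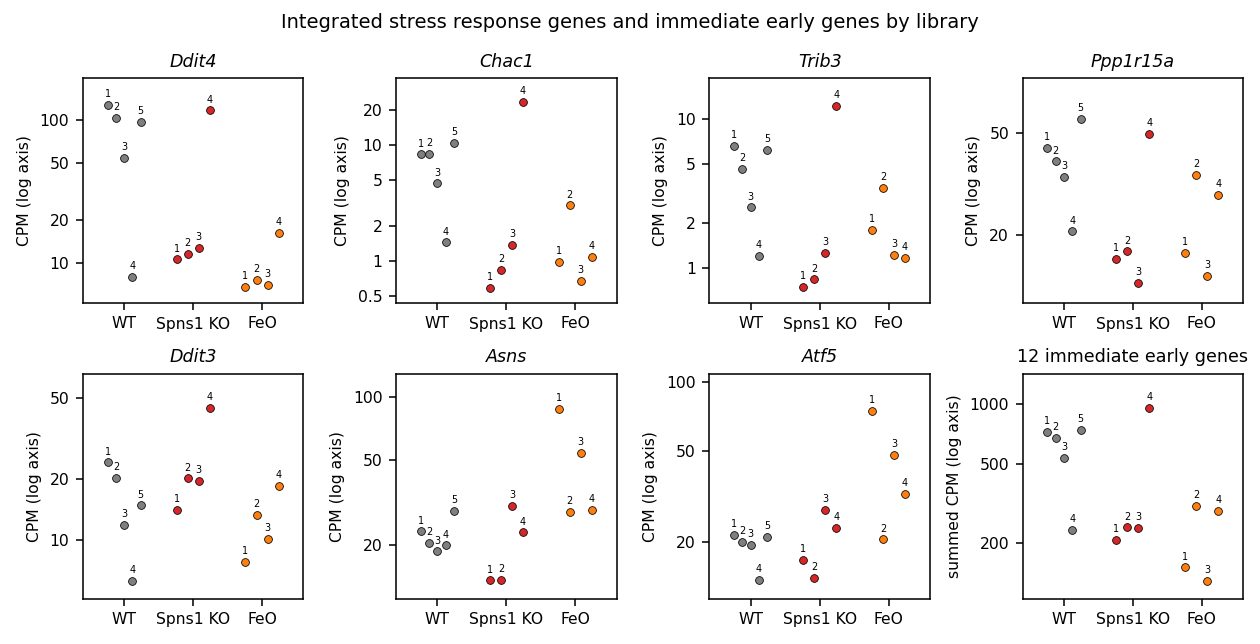
CPM (log axis) of 7 ISR genes and summed CPM of 12 immediate early genes (log axis, last panel), by library, numbered by replicate within WT (5), Spns1 KO (4) and FeO (4). In the upper row and the last panel Spns1 KO 4 lies with WT 1, 2, 3 and 5, and WT 4 with the low libraries, as for Ddit4 at 116 and 7.98, whereas Asns and Atf5 are highest in FeO 1 and FeO 3.

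The amino acid genes of the ISR did not share that order. Asns, asparagine synthetase, was at 23.1, 20.5, 18.6, 19.8 and 28.8 CPM across WT 1 to 5 and 13.6, 13.6, 30.5 and 22.9 CPM across Spns1 KO 1 to 4. Asns was at 87.3, 28.5, 54.1 and 29.2 CPM across FeO 1 to 4. It rose in FeO (log2 fold change 1.17 ± 0.32, adjusted p = 0.00879), where the lowest library, FeO 2, was at 28.5 and the highest WT library at 28.8 CPM, and did not pass in Spns1 KO (log2 fold change -0.14 ± 0.32, adjusted p = 0.776). Phgdh, the first enzyme of serine synthesis, was at 10.05, 9.34, 8.60, 6.99 and 7.95 CPM across WT 1 to 5, 13.8, 11.5, 27.2 and 11.8 CPM across Spns1 KO 1 to 4 and 17.8, 12.004, 14.003 and 7.05 CPM across FeO 1 to 4 and was above every WT library in Spns1 KO (log2 fold change 0.90 ± 0.28, adjusted p = 0.0298), with Spns1 KO 3 far above the other 3, while FeO overlapped WT (log2 fold change 0.57 ± 0.28, adjusted p = 0.109). Psat1, the second enzyme, ranged over 141 to 223 CPM in Spns1 KO, 117 to 189.7 in WT and 109 to 372 in FeO and passed in neither. Ppp1r15b, the constitutive partner of the eIF2α phosphatase, was at 252, 247, 263, 249 and 214 CPM across WT 1 to 5 and 179.8, 161, 194 and 198 CPM across Spns1 KO 1 to 4. Ppp1r15b was at 94.99, 191, 187 and 120.1 CPM across FeO 1 to 4. It was below every WT library in both models and passed in FeO (log2 fold change -0.73 ± 0.20, adjusted p = 0.00809) but not in Spns1 KO (log2 fold change -0.42 ± 0.19, adjusted p = 0.127), and no longer passed in FeO after removal of the length and GC trend (log2 fold change -0.23, adjusted p = 0.443). The Phgdh call was lost without Spns1 KO 1, Spns1 KO 3, WT 3, WT 4 or WT 5 (log2 fold changes of 0.53 to 0.97, adjusted p of 0.0508 to 0.166). It was also lost with library totals (log2 fold change 0.77, adjusted p = 0.0532) and after removal of the trend (log2 fold change 0.73, adjusted p = 0.0973). Of its 31-base words, 56.3% also occur in other genes, mostly the pseudogene Gm7901, so its count is uncertain.

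Of 36 further ISR genes 35 were tested. In Spns1 KO 1 was upregulated and 3 downregulated, beside 14% and 7.55% of all genes tested. In FeO 13 were upregulated and 2 downregulated, beside 22.4% and 19.7%. The medians of the 35 genes were 0.036 and 0.33. In Spns1 KO the largest changes were in Slc7a11, the cystine transporter (-1.80), Slc7a5, a transporter of large neutral amino acids (-1.45), and Nupr1, a stress-induced nuclear protein (1.40). In FeO they were in Nupr1 (1.27), in Slc7a1, a transporter of cationic amino acids (-1.18), and in Psph, the last enzyme of serine synthesis (1.10). Nupr1 was upregulated in both models. Fgf21 was not tested, its counts being too low.

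The promoter windows were searched for the ISR element TGATGNAA, which was in 4 of 35 genes (11.4%), or 4 of their 41 windows, and in 3.97% of all windows. The 4 genes were Asns, Chac1, Herpud1 and Trib3, of which Asns rose in FeO and the other 3 passed in neither comparison with all libraries. The matches are shown to let their differing central base and flanks be compared.
Asns: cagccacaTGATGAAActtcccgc
Chac1: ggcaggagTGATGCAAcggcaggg
Herpud1: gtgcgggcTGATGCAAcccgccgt
Trib3: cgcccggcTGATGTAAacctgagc

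The window of Asns (chr6:7693160-7693459, minus strand) is printed as the one of these that rose, with the match, which starts 23 bases before the start site, in capitals.
Asns: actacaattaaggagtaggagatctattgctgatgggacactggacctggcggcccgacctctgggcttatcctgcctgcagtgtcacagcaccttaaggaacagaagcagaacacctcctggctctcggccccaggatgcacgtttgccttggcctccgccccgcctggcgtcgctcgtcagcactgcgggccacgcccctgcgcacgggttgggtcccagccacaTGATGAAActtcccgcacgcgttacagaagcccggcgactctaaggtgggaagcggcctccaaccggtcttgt

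Of the 9 cytosolic heat shock genes, 4 were upregulated in FeO and none passed in Spns1 KO (median log2 fold changes 0.39 and 0.29). Over all genes tested 22.4% were upregulated in FeO, and 21.6% passed in either direction in Spns1 KO. At an unadjusted p under 0.05 by edgeR, 2 of the 9 (Hspa8 and Hsp90ab1) were higher in Spns1 KO and 2 (Hspa1a and Hspa1b) lower, beside 20.2% and 16.9% of all genes. DESeq2 called Hspa8 and Hsp90ab1 up and Hspa1a down, and called 25.3% of all genes. The heat-inducible pair Hspa1a and Hspa1b passed in neither model with all libraries. Hspa1a was at 38.6, 36.1, 43.2, 36.5 and 52.5 CPM across WT 1 to 5 and 23.7, 27.6, 29.2 and 33.3 CPM across Spns1 KO 1 to 4. Hspa1a was at 40.4, 42.1, 20.1 and 45.7 CPM across FeO 1 to 4. Spns1 KO lay below every WT library (log2 fold change -0.54 ± 0.21, adjusted p = 0.072) and FeO across them (log2 fold change -0.16 ± 0.21, adjusted p = 0.551). Hspa1b was at 82.7, 83.5, 113, 103 and 96.2 CPM across WT 1 to 5, 61.6, 67.5, 71.04 and 71.95 CPM across Spns1 KO 1 to 4 and 148, 135, 63.2 and 123 CPM across FeO 1 to 4, with Spns1 KO again below WT (log2 fold change -0.49 ± 0.20, adjusted p = 0.0893) and FeO overlapping (log2 fold change 0.29 ± 0.20, adjusted p = 0.239). FeO 1, 2 and 4 were above every WT library and FeO 3 was not, and without FeO 3 Hspa1b passed in FeO (log2 fold change 0.50, adjusted p = 0.0166). Reads of this pair are hard to assign, since 63.8% of the 31-base words of Hspa1a occur in Hspa1b. Hsf1, the factor that switches these genes on, was at 39.7, 39.1, 33.8, 23.7 and 37.9 CPM across WT 1 to 5, 39.8, 40.03, 36.9 and 45.4 CPM across Spns1 KO 1 to 4 and 26.9, 29.6, 27.9 and 32.2 CPM across FeO 1 to 4, and overlapped WT in both models (log2 fold change 0.22 ± 0.15, adjusted p = 0.309 in Spns1 KO and -0.26 ± 0.15, adjusted p = 0.18 in FeO).

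Constitutive chaperones of the cytosol rose in FeO. Hspa8 (Hsc70) stood at 905, 753, 733, 882 and 795 CPM across WT 1 to 5 and 1699, 1117, 1760.0 and 591 CPM across Spns1 KO 1 to 4. Hspa8 was at 1392, 1198, 2096 and 1289.7 CPM across FeO 1 to 4. FeO was above every WT library (log2 fold change 0.88 ± 0.27, adjusted p = 0.0177). Spns1 KO 4 lay below all of WT while the other 3 Spns1 KO libraries lay above it (log2 fold change 0.67 ± 0.27, adjusted p = 0.0882, or 0.91, adjusted p = 0.0058 without Spns1 KO 4). Hsp90ab1, the constitutive cytosolic Hsp90, was at 413, 373, 399, 461 and 441 CPM across WT 1 to 5, 712, 618, 696 and 442 CPM across Spns1 KO 1 to 4 and 968, 513, 801 and 660.0 CPM across FeO 1 to 4, raised in FeO (log2 fold change 0.82 ± 0.20, adjusted p = 0.00462) and just short of the limit in Spns1 KO (log2 fold change 0.56 ± 0.20, adjusted p = 0.0517), which it passed without Spns1 KO 4 (log2 fold change 0.70, adjusted p = 0.0127). Hsph1 (Hsp110, the exchange factor of Hsp70) was at 141, 136, 153, 186 and 132 CPM across WT 1 to 5, 212, 181, 240.1 and 136 CPM across Spns1 KO 1 to 4 and 242, 166, 249 and 200.2 CPM across FeO 1 to 4, and its FeO range overlapped WT through WT 4 (log2 fold change 0.52 ± 0.19, adjusted p = 0.0327 in FeO and 0.36 ± 0.19, adjusted p = 0.169 in Spns1 KO).

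Hspb1, a small heat shock protein, was at 6.64, 7.43, 5.70, 4.42 and 10.3 CPM across WT 1 to 5, 9.51, 8.66, 11.8 and 6.86 CPM across Spns1 KO 1 to 4 and 23.9, 11.9, 12.9 and 14.4 CPM across FeO 1 to 4, above WT in every FeO library (log2 fold change 1.19 ± 0.26, adjusted p = 0.00237) and overlapping it in Spns1 KO (log2 fold change 0.41 ± 0.26, adjusted p = 0.259). Hsp90aa1, the inducible cytosolic Hsp90, ranged over 415 to 506 CPM in Spns1 KO, 357 to 389 in WT and 287 to 596 in FeO. Dnajb1, the Hsp40 that feeds Hsp70, ranged over 33.2 to 39.9, 25.4 to 37.3 and 21.1 to 34.1 CPM. Neither passed. The FeO call for Hsph1 was lost with upper-quartile factors (log2 fold change 0.50, adjusted p = 0.028), with library totals (log2 fold change 0.45, adjusted p = 0.0602) and without WT 1, WT 2, WT 5, FeO 1 or FeO 3 (log2 fold changes of 0.44 to 0.50, adjusted p of 0.0556 to 0.0938), and that for Hspa8 without FeO 3 (log2 fold change 0.67, adjusted p = 0.0709). Words that occur in other genes made up 55.4% of Hspb1, 51.5% of Hsp90aa1 and 44.8% of Hspa8, which leaves their counts uncertain.

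Both genes of the mitochondrial chaperonin rose in both models. Hspe1, which encodes Hsp10 and had the largest rise of the 42 genes in Spns1 KO, was at 30.4, 27.1, 18.1, 18.8 and 27.02 CPM across WT 1 to 5 and 71.4, 82.9, 86.1 and 64.2 CPM across Spns1 KO 1 to 4. Hspe1 was at 46.2, 36.9, 81.5 and 71.3 CPM across FeO 1 to 4. Both models lay above WT throughout (log2 fold change 1.65 ± 0.23, adjusted p = 0.00044 in Spns1 KO and 1.28 ± 0.23, adjusted p = 0.000737 in FeO). Hspd1, which encodes its partner Hsp60, was at 235, 208, 178, 209 and 182 CPM across WT 1 to 5 and 526, 461, 536 and 327 CPM across Spns1 KO 1 to 4. Hspd1 was at 309, 178, 393 and 316 CPM across FeO 1 to 4. It was above WT in every Spns1 KO library (log2 fold change 1.19 ± 0.21, adjusted p = 0.00157) and overlapped WT through FeO 2 in FeO (log2 fold change 0.56 ± 0.21, adjusted p = 0.0422). Both genes passed in Spns1 KO with each library left out in turn, as Hspe1 did in FeO, but the FeO call for Hspd1 was lost without Spns1 KO 1, Spns1 KO 2, WT 2, WT 3, WT 5, FeO 1, FeO 3 or FeO 4 (log2 fold changes of 0.40 to 0.57, adjusted p of 0.05 to 0.152). That call was also lost with library totals (log2 fold change 0.48, adjusted p = 0.0563), by limma-voom (log2 fold change 0.52, adjusted p = 0.0533) and after removal of the trend (log2 fold change 0.54, adjusted p = 0.0741). The genes lie head to head and overlap on chromosome 1, Hspd1 at chr1:55077835-55088243 on the minus strand and Hspe1 at chr1:55088132-55091307 on the plus strand (GRCm38), and 53.1% and 30.5% of their words occur elsewhere, Hspd1 mostly with a pseudogene. Reads in the overlap may not be separated.

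**Figure D4:**
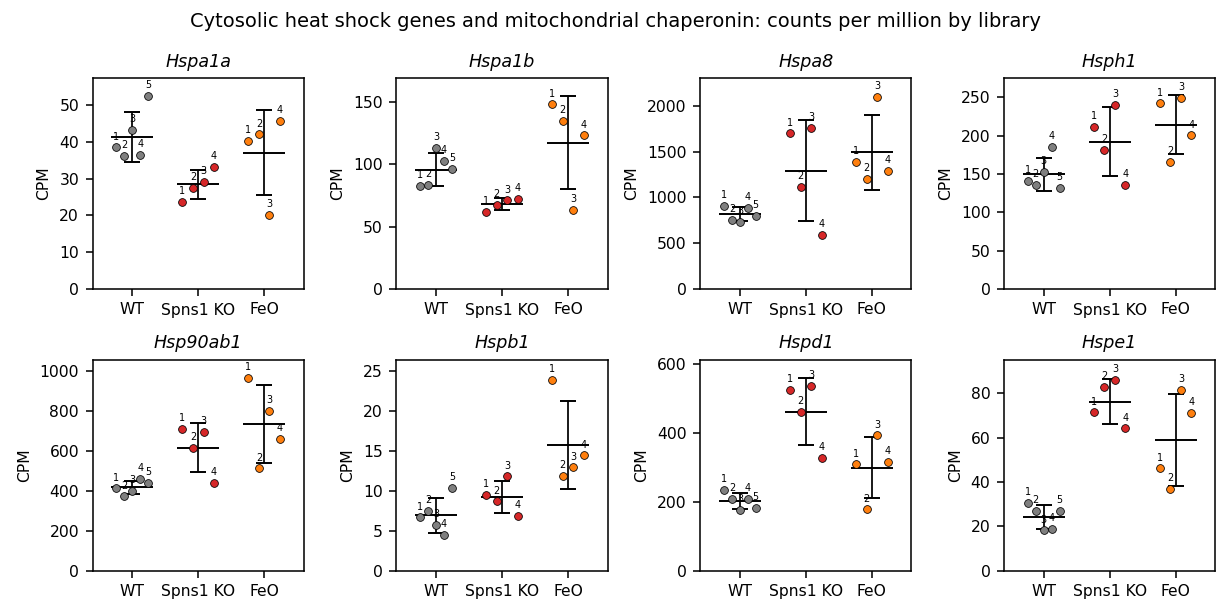
CPM (vertical axis, from 0) of 6 cytosolic heat shock genes and the 2 mitochondrial chaperonin genes in each library, numbered by replicate within WT (5), Spns1 KO (4) and FeO (4), with the group mean as a bar and the SD as an error bar. Hspe1 lies between 64.2 and 86.1 in Spns1 KO and between 18.1 and 30.4 in WT, whereas Hspa1a in Spns1 KO lies below every WT library.

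Of 14 other genes of mitochondrial protein quality control, each model had 6 upregulated and none downregulated, at a median of 0.56 for Spns1 KO and 0.35 for FeO. Clpp, a matrix protease, rose by 0.99 and 1.19, and Phb, prohibitin, by 0.94 and 1.16. In Spns1 KO the third was Trap1, the mitochondrial Hsp90 (0.83), and in FeO Oma1, a stress-activated protease (1.03). Of 37 other cytosolic heat shock genes, 11 rose and 1 fell in Spns1 KO, beside 14% and 7.55% of all genes. In FeO 20 rose and 1 fell, beside 22.4% and 19.7%. Cryab, a small heat shock protein, had the largest change in both (1.30 and 2.05), followed by Bag1, an Hsp70 co-chaperone (1.17 and 1.71). Hsbp1, which binds HSF1, was the third in Spns1 KO (1.16) and Hspb8, another small heat shock protein, in FeO (1.52).

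The heat shock element GAANNTTCNNGAA was found in 3 of 35 genes (8.57%), or 4 of their 41 windows, and in 0.603% of all windows. Hspd1 and Hspe1 share 2 overlapping matches on opposite strands, because their windows lie over each other, and Hsph1 holds 1 match behind its start sites. None was found in the window of Hspa1a or Hspa1b for this spacing of 3 units, which says only that these letters are not there. The window of Hspe1 (chr1:55087898-55088197, plus strand) is printed as the shared start region of this pair, with both matches in capitals.
Hspe1: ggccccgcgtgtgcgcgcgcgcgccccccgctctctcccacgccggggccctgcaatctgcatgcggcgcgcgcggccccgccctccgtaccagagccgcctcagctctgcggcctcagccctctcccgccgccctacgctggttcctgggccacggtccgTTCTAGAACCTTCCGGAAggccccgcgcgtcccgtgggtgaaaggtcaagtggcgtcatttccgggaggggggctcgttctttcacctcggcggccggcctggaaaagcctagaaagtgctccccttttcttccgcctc
Hsph1: actgaggaGAACTTTCCAGAAtctgcagc

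Set directly against FeO, Spns1 KO was lower for 10 of the 42 genes and higher for none, beside 8.1% of all genes lower and 6.76% higher (14.9% in either direction). All 4 Spns1 KO libraries lay below all 4 FeO libraries for 7 genes and above them for 1, beside 9.1% and 8.25% of all genes. The median of the 42 genes was -0.16, against 0.028 over all genes tested. With their log2 fold changes, these were, in the ER, Xbp1 (-0.97 ± 0.18, adjusted p = 0.00481), Hspa5 (-0.94 ± 0.22, adjusted p = 0.0138), Calr (-0.97 ± 0.24, adjusted p = 0.0155), Dnajb9 (-0.61 ± 0.14, adjusted p = 0.0115), Manf (-0.96 ± 0.25, adjusted p = 0.0196) and Sdf2l1 (-1.42 ± 0.35, adjusted p = 0.015). In the ISR they were Asns (-1.31 ± 0.34, adjusted p = 0.0209), Atf5 (-1.12 ± 0.32, adjusted p = 0.0307) and Eif2ak1 (-0.62 ± 0.18, adjusted p = 0.0359), and among the heat shock genes Hspa1b (-0.79 ± 0.21, adjusted p = 0.0246). Of these 10, Xbp1, Hspa5, Calr, Dnajb9, Manf and Eif2ak1 did not overlap between the models, as 17.4% of all genes did not. The chaperonin pair did not pass (log2 fold change 0.63 ± 0.23, adjusted p = 0.0703 for Hspd1 and log2 fold change 0.37 ± 0.24, adjusted p = 0.293 for Hspe1).

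Fitted on the Spns1 KO and FeO libraries alone, 3 of these 10 genes passed, namely Xbp1, Manf and Sdf2l1. The share of the 42 genes called was then 7.14%, beside 6.59% of all genes, against 23.8% and 14.9% with all libraries in the fit. The call for Eif2ak1 was lost without Spns1 KO 1, Spns1 KO 2, Spns1 KO 4, FeO 1 or FeO 3 (log2 fold changes of -0.69 to -0.51, adjusted p of 0.0512 to 0.0993), for Atf5 without Spns1 KO 1, Spns1 KO 2, FeO 1 or FeO 3 (log2 fold changes of -1.07 to -0.73, adjusted p of 0.0643 to 0.118), for Asns without Spns1 KO 1, Spns1 KO 2 or FeO 1 (log2 fold changes of -1.16 to -0.89, adjusted p of 0.0618 to 0.082), for Hspa1b without Spns1 KO 1, Spns1 KO 2 or FeO 1 (log2 fold changes of -0.78 to -0.65, adjusted p of 0.0589 to 0.082), for Manf without Spns1 KO 1, Spns1 KO 4 or FeO 3 (log2 fold changes of -0.88 to -0.73, adjusted p of 0.0508 to 0.0619) and for Sdf2l1 without FeO 1 (log2 fold change -1.23, adjusted p = 0.0512). The call for Eif2ak1 was also lost after removal of the trend (log2 fold change -0.64, adjusted p = 0.0661) and without Spns1 KO 4 and WT 4 (log2 fold change -0.52, adjusted p = 0.0706). The total count of calls was 5 without Spns1 KO 1, 6 without Spns1 KO 2 and 5 without FeO 1.

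Levels were also ordered per kilobase of transcript, the scale on which genes can be compared. In WT, Herpud1 led at 643 ± 151 CPM per kilobase (SD, n = 5), ahead of Hspa8 at 339.9 ± 32.1 and Hsp90ab1 at 166 ± 13.7. Among the ER chaperones Hspa5 stood at 98.6 ± 12.6, Hsp90b1 at 70.9 ± 7.40 and Calr at 67.3 ± 6.20, the last 2 within their spread of each other. In FeO the order of these 3 changed, with Calr at 234 ± 71.5, Hspa5 at 183 ± 49.5 and Hsp90b1 at 136 ± 39.6 (n = 4), although Calr and Hspa5 lay within their spread. Sdf2l1 and Trib3 were lowest in WT, at 1.02 ± 0.285 and 2.09 ± 1.15.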

How the data were processed

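Nascent kidney RNA tagged with 4-thiouracil was captured, selected for poly-A and sequenced by the authors in 13 libraries (4 Spns1 KO, 5 WT, 4 FeO). The authors deposited 1 table of estimated counts, 1 column per library and 1 row per gene symbol, without normalization. The submitters' processing notes name bcl2fastq 2.19, kallisto 0.44.0, GRCm38 and DESeq2, whereas the study's methods describe alignment with STAR and counting with HTSeq. Counts were whole numbers, of which the largest were rounded to 6 digits, and no further rounding was needed. Depth was 23068023 to 71296474 counts. Depth limits genes of a few CPM, such as Sdf2l1, Trib3 and Chac1, and PCR copies were not separated.

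Groups were taken from the labels. The 16468 genes kept by filterByExpr were fitted together in all 13 libraries with edgeR 4.0.16 (R 4.3.3, TMM factors, quasi-likelihood test, Benjamini-Hochberg adjustment over all genes tested), and a call needed an adjusted p under 0.05 and a log2 fold change beyond 0.5, the limits of the study. The standard error is the log2 fold change divided by the root of the test statistic. CPM used the same factors. Alternatives were other scalings, DESeq2 1.42.0, limma-voom (limma 3.58.1), all genes with a count, the 2 groups alone, no fold limit, a replicate block, removal of a length and GC trend (4 spline degrees of freedom), and each library left out. Length, GC content, coordinates and shared 31-base words came from GENCODE M21 (GRCm38). The method was tested on simulated data. The labels number the libraries but do not say what separates them, so p-values measure the spread between these libraries, which may be partly technical. The alternative without Spns1 KO 4 and WT 4 was chosen after seeing the data.

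All 42 genes are accounted for: those called in any comparison at a mean of 10 or more counts, and Atf4, Ddit3, Xbp1, Atf6, Hspa5, Hspa1a, Hspa1b, Hspd1 and Hsf1, have every library's value, and the others a range. Of each further list the 3 called genes with the largest change and a mean of 100 or more counts are named. The genes and lists were chosen with earlier results of these data known. Words shared with other genes also made up 13.2% of Hsp90ab1, 12.3% of Hsp90b1, 11.2% of Ppp1r15b and 10.8% of Dnajb9.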

Additional observations from a re-analysis of the deposited data

Results flagged for a closer look

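The highest or lowest library of a group lay far from the rest, by Dixon's 95% limit, in 8 of 126 groups of 4 or 5 libraries tested for the 42 genes, where about 6.3 would arise by chance at 1 in 20. Of these 8, 4 came from Spns1 KO 4 and 2 from WT 4. Spns1 KO 4 was highest for Ppp1r15a at 49.6 CPM (others 12.99 to 17.23), for Trib3 at 12.2 CPM (others 0.745 to 1.27), for Chac1 at 23.5 CPM (others 0.581 to 1.37) and for Ddit4 at 116 CPM (others 10.5 to 12.7). WT 4 was lowest for Atf5 at 13.7 CPM (others 19.5 to 21.5) and highest for Eif2ak1 at 109 CPM (others 80.4 to 87.3). Spns1 KO 3 was highest for Phgdh at 27.2 CPM (others 11.5 to 13.8), and FeO 4 for Ddit4 at 16.2 CPM (others 6.72 to 7.56).

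With all libraries in the fit, the effect of Spns1 KO differed from that of FeO, by edgeR's test of the difference itself, for 10 of the 42 genes, each lower in Spns1 KO. Over all genes tested 8.1% were lower and 14.9% differed in either direction. On the log2 scale the difference was -1.42 for Sdf2l1, -1.31 for Asns, -1.12 for Atf5, -0.97 for Xbp1, -0.97 for Calr, -0.96 for Manf, -0.94 for Hspa5, -0.79 for Hspa1b, -0.62 for Eif2ak1 and -0.61 for Dnajb9. Fitted on the 2 groups alone, 3 of the 42 genes passed (7.14%), beside 6.59% of all genes.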

How the results depend on the processing

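The 42 genes gave 45 calls over the 3 comparisons. Over the alternatives to the fit, 490 of 540 values for these calls stayed past the limits in the same direction, 49 fell short of them and 1 turned. With 1 library left out, 531 of 585 stayed and 54 fell short. Depth limits the genes of a few CPM. The share of all genes called is given in brackets. In Spns1 KO against WT the 11 calls (21.6%) became 17 with DESeq2 (25.3%) and 17 with the 2 groups fitted alone (25.5%). They became 6 with a replicate block and the length and GC trend removed together (9.42%) and 23 without Spns1 KO 4 and WT 4 (33.5%). With 1 library left out they were 7 to 22, with 7 without Spns1 KO 3 (12.2%) and 22 without Spns1 KO 4 (34.1%). The 24 FeO calls (42.2%) ranged over 20 to 27 with 1 library left out (35.5% without FeO 3 and 44.8% without FeO 2). No alternative moved the FeO calls by more than 1.5 times. The 10 calls between the models (14.9%) became 3 with the 2 groups alone (6.59%). With 1 library left out they were 5 to 12 (7.08% without FeO 1 and 17.7% without FeO 4). The cause of these shifts was not tested. Deviations of libraries with the same number had correlations of -0.30 to 0.26, and those with different numbers of -0.32 to 0.37. No pairing by number was seen, but deviations taken within groups of 4 or 5 libraries cannot exclude one. A replicate block gave 11 calls in Spns1 KO (18.1% of all genes), 21 in FeO (39.6%) and 7 between the models (11.6%). Library totals moved the median of all genes in Spns1 KO to -0.18 and that of the 42 genes to -0.0068. With every gene with a count in the test the sign turned, at log2 fold changes of Chac1 0.027, Eif2ak1 0.045 and Hspa5 0.014 in Spns1 KO, Dnajb9 0.038 in FeO. Under removal of the length and GC trend the turned values were Atf5 -0.14, Atf6 0.28, Eif2ak1 0.32, Eif2ak2 0.20, Ern1 0.024, Hspa5 0.24 and Hspb1 -0.0056 in Spns1 KO, Atf6 0.20, Dnajb9 0.079, Edem1 0.29 and Ern1 0.019 in FeO, Hsp90b1 0.00020 between the models. Turned values with library totals were Atf5 -0.052 and Edem1 -0.12 in Spns1 KO, Ppp1r15a -0.070 between the models. With limma-voom the sign turned, at log2 fold changes of Canx 0.0033, Ppp1r15a -0.090 and Trib3 -0.029 between the models. Under fits of the 2 groups alone the turned values were Chac1 0.014 in Spns1 KO. Turned values with the replicate block were Atf4 0.017 and Edem1 -0.063 in Spns1 KO, Canx 0.013 and Ppp1r15a -0.033 between the models. With the replicate block with that trend removed the sign turned, at log2 fold changes of Atf5 -0.23, Atf6 0.16, Eif2ak1 0.26, Eif2ak2 0.19 and Hspa5 0.24 in Spns1 KO, Atf6 0.086, Dnajb9 0.058 and Edem1 0.17 in FeO, Hsp90b1 0.021 and Psat1 0.041 between the models. Under upper-quartile factors the turned values were Chac1 0.025 and Edem1 -0.0030 in Spns1 KO. Turned values with Spns1 KO 4 and WT 4 left out together were Atf5 -0.083, Atf6 0.020 and Eif2ak1 0.17 in Spns1 KO, Atf4 -0.11, Canx 0.15, Chac1 -0.67, Hsp90b1 0.020, Hspa8 0.031, Ppp1r15a -0.60 and Trib3 -1.03 between the models. Of these, Ern1 in FeO alone was a call. With 1 library, or Spns1 KO 4 and WT 4 together, left out the uncalled values that turned spanned log2 fold changes, for Asns (-0.41 to 0.011), Atf4 (-0.51 to 0.043), Atf5 (-0.10 to 0.23), Chac1 (-3.12 to 0.37), Edem1 (-0.064 to 0.20), Eif2ak1 (-0.092 to 0.17), Hspa5 (-0.24 to 0.047) and Trib3 (-2.41 to 0.18) in Spns1 KO, for Dnajb9 (-0.092 to 0.019), Hspa1a (-0.25 to 0.047) and Psat1 (-0.089 to 0.63) in FeO, for Atf4 (-0.11 to 0.18), Canx (-0.19 to 0.15), Chac1 (-0.67 to 2.85), Herpud1 (-0.46 to 0.11), Hsp90aa1 (-0.29 to 0.0070), Hsp90b1 (-0.26 to 0.069), Hspa8 (-0.40 to 0.031), Phgdh (-0.040 to 0.54), Ppp1r15a (-0.60 to 0.29), Psat1 (-0.41 to 0.28) and Trib3 (-1.03 to 1.44) between the models. Calls gained with 1 library left out were Canx (without Spns1 KO 4, WT 4, FeO 2), Chac1 (without Spns1 KO 4), Ddit4 (without Spns1 KO 4), Dnajc3 (without Spns1 KO 4, WT 4, FeO 2), Herpud1 (without Spns1 KO 4, WT 4, FeO 1, FeO 2), Hsp90ab1 (without Spns1 KO 4, FeO 1, FeO 2, FeO 4), Hspa1a (without Spns1 KO 4, FeO 3), Hspa8 (without Spns1 KO 4), Pdia4 (without Spns1 KO 4, FeO 1, FeO 2, FeO 3, FeO 4), Ppp1r15a (without Spns1 KO 4) and Trib3 (without Spns1 KO 4) in Spns1 KO, Atf6 (without WT 5), Chac1 (without Spns1 KO 4), Dnajc3 (without FeO 2), Herpud1 (without FeO 2), Hsp90aa1 (without FeO 2), Hspa1b (without FeO 3), Phgdh (without FeO 4) and Trib3 (without Spns1 KO 4) in FeO, Eif2ak2 (without FeO 4), Eif2ak4 (without Spns1 KO 4), Hspa1a (without FeO 3), Hspb1 (without WT 5, FeO 2), Hspd1 (without Spns1 KO 4, FeO 3) and Pdia4 (without FeO 4) between the models.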

Other observations

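In the direct comparison of Spns1 KO with FeO, other genes of the same responses were counted too. Of 34 other ER folding and degradation genes 6 were lower in Spns1 KO, led by Sil1 (-0.85), Edem2 (-0.73) and Derl1 (-0.70), and none was higher. Of 35 further ISR genes 8 were lower and 1 higher, led by Aldh18a1, an enzyme of proline synthesis (-1.67), Slc7a11 (-1.48) and Mthfd2, a mitochondrial folate enzyme (-1.38). Of 37 other cytosolic heat shock genes 7 were lower, led by Hspb8 (-1.99), Hspa2 (-0.88) and Cryab (-0.75), and none was higher. Of 14 genes of mitochondrial protein quality control 3 were higher in Spns1 KO and none was lower. The 3 were Lonp1, the matrix protease (0.88), Trap1 (0.65) and Spg7, a protease of the inner membrane (0.51). The median of the 14 was -0.14, with 8 below 0 and 6 above. Over all genes tested 6.76% were higher and 8.1% lower.

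Markers of further kidney cell types were counted against WT too. In Spns1 KO 2 of 5 podocyte, 3 of 6 endothelial, 3 of 5 fibroblast, 2 of 4 loop of Henle and 3 of 8 distal and collecting duct markers were upregulated and 1 of the last group downregulated. In FeO 3 podocyte, 2 endothelial, 2 loop of Henle and 4 distal and collecting duct markers were upregulated and 1 endothelial marker downregulated. The shares over all genes tested were 14% up with 7.55% down for Spns1 KO, and 22.4% up with 19.7% down for FeO. Each list holds only 4 to 8 markers, so these counts alone do not show a change in cell content.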
